A study of Arabidopsis thaliana with 16 samples.

Results

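Guard cells open and close the stomatal pore by moving ions across the plasma membrane. The proton pump AHA1 hyperpolarizes the membrane, the inward potassium channels KAT1, KAT2 and AKT1 then let potassium in and the pore opens. The anion channels SLAC1, SLAH3 and ALMT12 and the outward potassium channel GORK release anions and potassium when the pore closes. The chromatin at the genes of these 8 proteins was examined in 5 states of the stomatal lineage. The genes were KAT1 (AT5G46240), KAT2 (AT4G18290), GORK (AT5G37500), AKT1 (AT2G26650), SLAC1 (AT1G12480), SLAH3 (AT5G24030), ALMT12 (AT4G17970) and AHA1 (AT2G18960). Every transposase hypersensitive site (THS, a stretch of open chromatin) of the deposited table that overlapped 1 of these genes or the 2000 bp upstream of its start was taken, which gave 41 of 65351 THSs. The table also holds open sites published earlier, so a THS need not have been called as a peak in these libraries.

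INTACT, in which a biotinylated tag on the nuclear envelope allows nuclei of a chosen cell type to be purified, was combined with ATAC-seq, in which a transposase cuts accessible DNA. All plants were 3-day-old Col-0 seedlings that carried the biotin ligase ACT2pro:BirA and the nuclear tag NTF, and the states differed in the promoter of the tag. The promoters were AtML1 for protoderm (Proto, n = 3), SPCH for meristemoid mother cells (MMC, n = 3), MUTE for meristemoids (M, n = 4), FAMA for guard mother cells (GMC, n = 3) and GC1 for guard cells (GC, n = 3). A state is therefore the set of nuclei in which that promoter was active in whole seedlings, so neighbouring states can share nuclei (SPCH is also active in early meristemoids), and the GC nuclei came from young seedlings. Values are scaled cutcounts, the transposition events on a THS divided by 1 size factor per library. In bulk nuclei, fewer cells with an open site and a less open site in every cell cannot be told apart.

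Total cutcounts on THSs lay between 3412226 (M replicate 3) and 13596509 (M replicate 4), and no member had fewer than 3 cutcounts in a library. Libraries differed in how much signal lay on strong THSs. With the 10 largest THSs left out, the 10% of THSs with the highest level held 33.1% ± 1.08 of the signal in GMC and 36.5% ± 1.65 in GC, against 41.1% ± 2.52 in MMC and 40.7% ± 4.48 in M (SD). On this measure M replicate 1 was the lowest of its group with 34.3%, against 40.7% to 44.4% in the other M libraries. Whether it is an outlier on this measure was not tested. Counts that rest on it are given with and without it. With all THSs kept, the share was 42.3% ± 0.76 in GMC, 45.2% ± 1.02 in GC, 45.2% ± 1.37 in MMC and 46.3% ± 1.32 in M (SD). M replicate 1 then held 44.8%, against 45.8% to 48.0% in the other M libraries, and GC did not differ from MMC. The guard-cell markers MYB60, OST1 and SCAP1 held 13 THSs, and HT1 held none. The summed level of these 13 was 706 to 753 scaled cutcounts in GC, against 636 to 707 in Proto, 627 to 749 in MMC, 665 to 1040.1 in M and 711 to 779 in GMC. The GC range thus overlapped that of each other state. None of the 13 was called in GC against the other 4 states (limma, smallest adjusted p = 0.646), and 0.00306% of all THSs were. With so few calls in the whole table, this count cannot tell whether the markers set GC apart. The 8 THSs of mesophyll markers summed to 1428 to 1516 in GMC and 1809 to 2235 in GC, against 2410 to 2700.0 in MMC and 1424 to 3371 in M. Vascular markers (8 THSs) summed to 307 to 356 in GMC and 317 to 337 in GC, against 246 to 336 in MMC and 277 to 336 in M, and root hair and trichome markers (8 THSs) to 795 to 960.2 and 952 to 966, against 997 to 1091 and 855 to 1177.

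The 41 THSs were of ordinary strength. Their median level was 58.9 scaled cutcounts, against 53.9 for all THSs, with a range of 19.2 to 522. Of the 41, 2 lay in the top 10% of all THSs by level, both at AKT1, and 19 lay under the median of all THSs. The stronger AKT1 site, THS_22120, had its midpoint 8 bp from the start of the neighbouring gene AT2G26660. SLAH3 held 10 THSs, GORK, AKT1 and AHA1 held 7 each, KAT1, KAT2 and ALMT12 held 3 each, and SLAC1 held a single THS. The midpoint lay upstream of the gene start in 16 and in or just past the gene in 25. Summed over the THSs of each gene and given per 100 bp, the level in GC was 43.6 ± 4.89 scaled cutcounts at KAT1, 42.3 ± 3.15 at AKT1, 36.5 ± 1.05 at AHA1, 28.9 ± 6.14 at SLAC1, 27.9 ± 1.91 at SLAH3, 27.4 ± 4.06 at ALMT12, 22.5 ± 1.21 at GORK and 21.3 ± 2.27 at KAT2 (SD, n = 3). In this order KAT1 and AKT1, and then SLAC1, SLAH3 and ALMT12, differed by less than their SDs. GORK and KAT2 differed by more than the SD of GORK and less than that of KAT2. The place of AKT1 rests in large part on THS_22120, which alone had a mean of 443 of the summed 876 scaled cutcounts in GC.

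**Figure D1:**
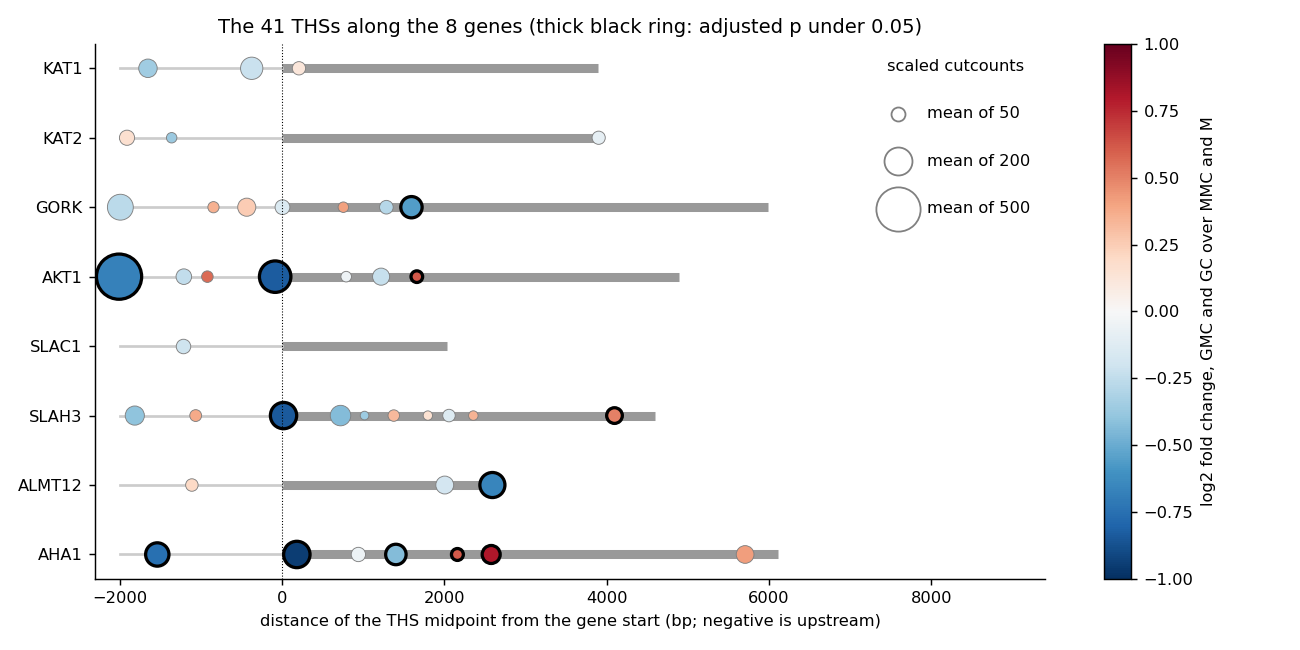
The 41 THSs along the 8 genes, with the distance of the THS midpoint from the gene start in bp on the horizontal axis, the gene as a grey bar, the circle area proportional to the mean scaled cutcount and the colour giving the log2 fold change of GMC and GC over MMC and M (black ring, adjusted p under 0.05). The 8 ringed blue circles include the strongest THSs of AKT1, SLAH3, ALMT12 and AHA1 (lower in GMC and GC), and the 4 ringed red circles lie inside the AKT1, SLAH3 and AHA1 genes.

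The sequences below are reference sequence of RefSeq TAIR10.1, shown 5′ to 3′ on the strand of the named gene (plus for AHA1, minus for the others), and lie outside the exons of protein-coding genes. They belong to the THSs on which the results turn. KAT1, SLAC1 and GORK are shown for their guard-cell roles and AKT1, SLAH3 and AHA1 for the change described further on. Capitals mark matches, on either strand, to the words searched. The first was GAGAGAGA, the GA repeat bound by BPC proteins. The next was CACGTG, an E-box and G-box to which basic helix-loop-helix factors bind. The core of sites for DOF factors was searched as TAAAG. Sites for GATA factors were searched as AGATAA, and the form that begins with T in place of the first A was searched as well. TAAAG can overlap a GATA word or its own reverse complement, and such overlaps were each counted. The KAT1 stretch is THS_59431, chr5:18747639-18747917, which lies over the non-coding gene AT5G06785. The SLAC1 stretch is THS_02846, chr1:4260422-4260611. The GORK stretch is the intronic part of THS_57064, chr5:14893565-14893771. The AKT1 stretch is the central 300 bases of the part of THS_22117 before the gene start, chr2:11336748-11337047, so the bases next to the start are not shown. The SLAH3 stretch is the part of THS_55389 before the gene start, chr5:8122915-8123047. The AHA1 stretch is THS_20113, chr2:8219837-8220122.
KAT1 THS_59431: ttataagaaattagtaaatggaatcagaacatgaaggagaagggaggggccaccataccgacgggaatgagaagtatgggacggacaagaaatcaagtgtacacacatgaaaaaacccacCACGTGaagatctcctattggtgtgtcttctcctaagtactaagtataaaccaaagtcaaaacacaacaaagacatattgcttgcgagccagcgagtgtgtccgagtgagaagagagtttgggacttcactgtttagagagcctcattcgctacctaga
SLAC1 THS_02846: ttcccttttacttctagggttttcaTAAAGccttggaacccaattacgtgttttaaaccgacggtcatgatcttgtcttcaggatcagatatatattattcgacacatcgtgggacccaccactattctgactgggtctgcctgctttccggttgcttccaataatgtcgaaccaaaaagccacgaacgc
GORK THS_57064: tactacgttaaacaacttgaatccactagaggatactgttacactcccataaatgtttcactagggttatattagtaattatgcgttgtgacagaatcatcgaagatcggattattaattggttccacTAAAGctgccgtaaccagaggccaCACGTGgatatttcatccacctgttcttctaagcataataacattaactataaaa
AKT1 THS_22117: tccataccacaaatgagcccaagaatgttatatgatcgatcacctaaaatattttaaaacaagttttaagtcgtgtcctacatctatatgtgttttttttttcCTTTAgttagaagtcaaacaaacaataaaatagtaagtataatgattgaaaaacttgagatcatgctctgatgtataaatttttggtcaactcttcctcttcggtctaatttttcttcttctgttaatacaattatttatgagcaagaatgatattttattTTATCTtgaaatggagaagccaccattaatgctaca
SLAH3 THS_55389: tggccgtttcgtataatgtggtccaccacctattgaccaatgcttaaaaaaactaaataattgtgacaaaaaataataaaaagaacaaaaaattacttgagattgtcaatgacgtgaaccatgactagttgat
AHA1 THS_20113: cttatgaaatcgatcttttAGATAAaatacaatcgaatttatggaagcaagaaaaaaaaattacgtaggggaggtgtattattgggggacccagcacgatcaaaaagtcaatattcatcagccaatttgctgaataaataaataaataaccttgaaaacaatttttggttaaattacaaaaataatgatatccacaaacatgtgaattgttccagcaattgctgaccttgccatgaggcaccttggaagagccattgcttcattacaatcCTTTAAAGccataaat

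Within the 300 bp centred on each THS, CACGTG was found in 3 of the 41 members, at KAT1 THS_59431, GORK THS_57064 and AHA1 THS_20116, and in 8.43% of all THSs. GAGAGAGA was found in 2, at SLAH3 THS_55383 and, with 5 overlapping matches, at AHA1 THS_20114, and in 7.64% of all THSs. TAAAG was found in 26 of 41 and in 61.9% of all THSs. A GATA word was found in 19 of 41 and in 45.6% of all THSs. The printed SLAH3 stretch held none of these words. A match is a string of letters and was not tested as a binding site.

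All tests below are limma fits on log2(scaled cutcount + 1) over all THSs, with Benjamini-Hochberg adjusted p-values, a threshold of 0.05 and fold changes given ± SE. KAT1, the inward rectifier long used as a guard-cell gene, had its leading THS (the THS with the highest mean) 372 bp upstream of the start, the sequence with the E-box word printed above. On THS_59431, the Proto libraries had 117, 117 and 129.5 scaled cutcounts, the MMC libraries 109, 121 and 143, the M libraries 97.0, 143, 131 and 229, the GMC libraries 77.6, 101 and 110.0 and the GC libraries 121, 159 and 131. All 3 GC libraries lay above all 3 GMC libraries, and both overlapped M. The log2 fold change of GC over GMC was 0.51 ± 0.26 but did not pass across all THSs (unadjusted p = 0.0562), and that of GMC and GC over MMC and M was -0.22 ± 0.18 (adjusted p = 0.325). The log2 fold change of GC over the other 4 states was 0.19 ± 0.20 (SE, 95% interval -0.23 to 0.60, adjusted p = 0.750 by limma). At the KAT1 THS 1650 bp upstream, THS_59432, the Proto libraries had 60.1, 69.7 and 76.8 scaled cutcounts, the MMC libraries 83.5, 97.4 and 123, the M libraries 52.8, 84.6, 125 and 150.2, the GMC libraries 62.8, 66.5 and 57.0 and the GC libraries 76.8, 103 and 104. Here too all GC libraries lay above all GMC libraries, but how often this occurs among all THSs was not counted. The log2 fold change in GC was 0.23 ± 0.22 (adjusted p = 0.726), while that of GMC and GC over MMC and M was -0.36 ± 0.19 (adjusted p = 0.145). The KAT1 THS inside the gene, THS_59430, had a state mean of 55.7 in GC, against 39.4 in Proto, 40.7 for MMC, 49.5 for M and 40.5 for GMC, and its log2 fold change of 0.41 ± 0.23 (adjusted p = 0.646) had an interval of -0.07 to 0.89. All 3 KAT1 THSs thus had a GC fold change above 0, but none passed the test.

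KAT2, a second inward rectifier of guard cells, had no call in any comparison. Its leading THS, THS_44172, lay 1908 bp upstream, where the Proto libraries had 47.9, 60.5 and 61.2 scaled cutcounts, the MMC libraries 53.0, 64.0 and 31.1, the M libraries 53.8, 50.1, 81.7 and 66.3, the GMC libraries 43.1, 83.7 and 76.4 and the GC libraries 51.5, 63.2 and 54.5. The 5 states overlapped throughout. The log2 fold change in GC against the other 4 states was -0.03 ± 0.22, with an interval of -0.48 to 0.43. THS_44173, at 1358 bp upstream, was weaker, with 15.3 to 31.2 in GMC, 19.7 to 38.3 in GC and 21.6 to 45.3 in MMC and M, a log2 fold change of -0.37 ± 0.25 in GMC and GC over MMC and M (adjusted p = 0.238). The third KAT2 THS lay over the end of the gene, 88 bp from the start of AT4G18300, and had state means between 42.0 and 51.3.

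AKT1, an inward potassium channel best known for uptake in roots, carried the strongest sites. THS_22117 spanned its start, with the midpoint 83 bp upstream (chr2:11336588-11337055). There the Proto libraries had 240.4, 289.6 and 288 scaled cutcounts, the MMC libraries 333, 264 and 448, the M libraries 194, 341, 182 and 445, the GMC libraries 139, 141 and 174 and the GC libraries 212, 175 and 187. All 3 GMC libraries lay below every Proto, MMC and M library, while GC overlapped the lowest M libraries. The share of all THSs with such a separation of GMC was not counted. The fold change of GMC and GC over MMC and M was -0.84 ± 0.20 on the log2 scale (limma, adjusted p = 0.0069), and that of GC over the other 4 states was -0.38 ± 0.23 (adjusted p = 0.647). The still stronger THS_22120 (chr2:11338418-11339071) fell only partly in the upstream window, since its midpoint was 2006 bp from AKT1 and 8 bp from the start of SPX2 (AT2G26660), a gene of phosphate signalling. There the GMC libraries had 284, 334 and 319 scaled cutcounts and the GC libraries 383, 402 and 542, against 489, 562 and 770.3 for MMC and 328, 785, 549.7 and 835 for M, and Proto had 450.2, 644 and 674. The groups overlapped, since M replicate 1 was among the low libraries and GC replicate 3 among the high ones. Its log2 fold change of -0.68 ± 0.21 passed the test (adjusted p = 0.0192), but this call was lost without MMC replicate 3 (adjusted p = 0.0578), GMC replicate 1 (0.0535) or GC replicate 1 (0.0540).

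GORK, the outward rectifier that releases potassium on closure, had 7 THSs between 1990 bp upstream and 1596 bp into the gene. Its leading THS, THS_57070, lay 1990 bp upstream and 106 bp from the start of the neighbouring gene EMB1467 (AT5G37510). There the Proto libraries had 172, 187 and 208 scaled cutcounts, the MMC libraries 149.98, 160.4 and 230.3, the M libraries 126, 182, 172 and 261, the GMC libraries 121, 155 and 154 and the GC libraries 176, 138 and 146. The states overlapped, and the log2 fold change of GMC and GC over MMC and M was -0.27 ± 0.17 (adjusted p = 0.218). The THS at the GORK start, THS_57067, was weaker, with state means from 47.7 (GMC) to 59.4 (M). At the intronic THS_57064, whose E-box word is printed above, the GMC libraries had 62.8, 94.4 and 103 scaled cutcounts and the GC libraries 84.3, 99.4 and 102, against 119, 129 and 149 for MMC and 102, 145, 127 and 169 for M. The groups touched only at M replicate 1, and the THS was lower in GMC and GC by a log2 fold change of -0.56 ± 0.16 (adjusted p = 0.0148), a call that was lost without GMC replicate 1 (adjusted p = 0.0598).

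**Figure D2:**
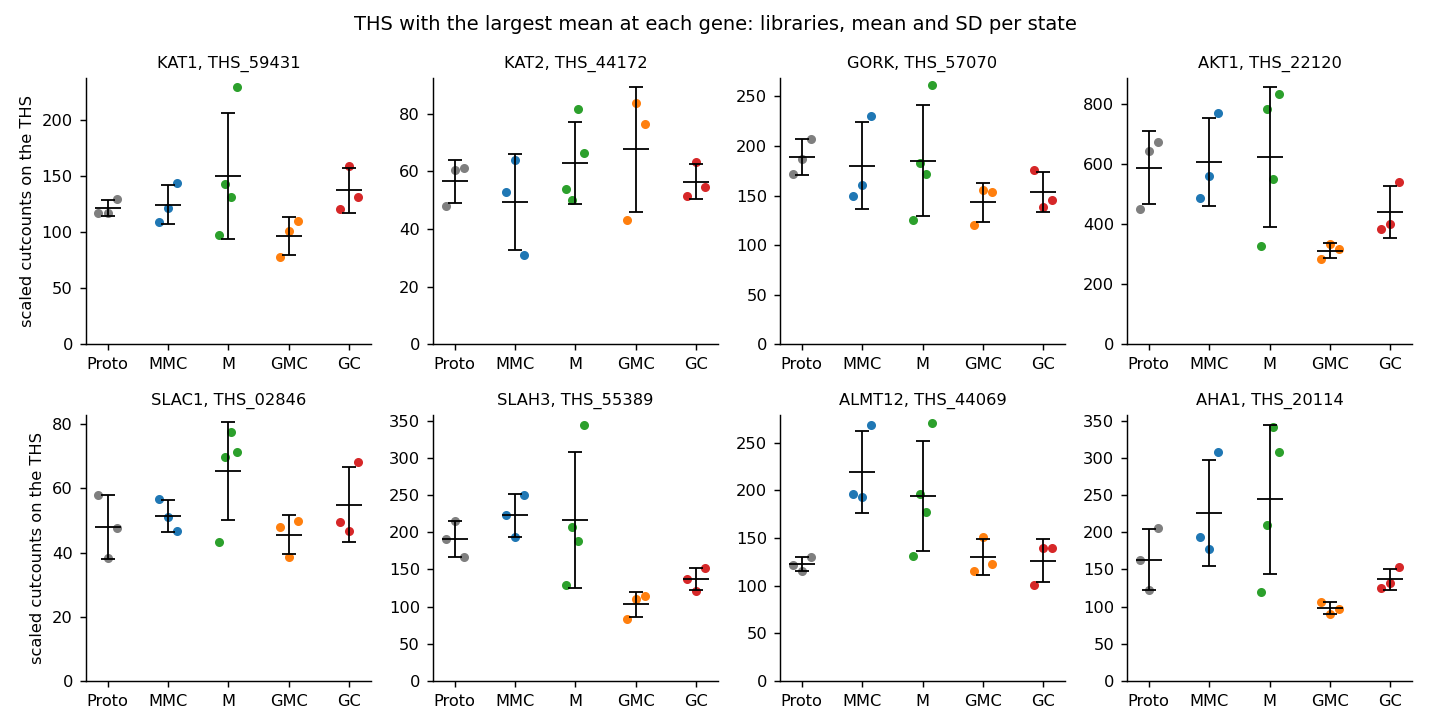
Scaled cutcounts on the leading THS of each gene in every library (points), with the mean and SD of each state (bars), from Proto to GC. KAT1, GORK, AKT1, SLAC1, SLAH3 and AHA1 have their lowest mean in GMC (96.2, 143, 312, 45.5, 103 and 97.6), and the states of KAT2 and SLAC1 overlap.

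Among the anion channels, SLAC1, the slow anion channel that guard cells need for closure in response to abscisic acid and CO2, had a single THS of 190 bp, THS_02846, at 1216 bp upstream and 267 bp from the start of AT1G12490. There the Proto libraries had 58.1, 38.3 and 47.5 scaled cutcounts, the MMC libraries 56.6, 51.2 and 46.7, the M libraries 43.2, 69.7, 77.6 and 71.2, the GMC libraries 48.0, 38.6 and 49.9 and the GC libraries 49.7, 46.8 and 68.3. No state was separate from another, the highest mean was in M and the lowest in GMC. The log2 fold change in GC over the other 4 states was 0.07 ± 0.20 (interval -0.35 to 0.49, adjusted p = 0.907), and a change inside that interval could not be told from none at this spread. In GMC and GC over MMC and M it was -0.21 ± 0.18 (adjusted p = 0.361). No THS of the table lay in the SLAC1 gene itself or in the first 1000 bp before it.

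SLAH3, a homologue of SLAC1 that passes nitrate, had the most THSs, and 8 of the 10 lay inside or at the start of the gene. Its leading THS, THS_55389, spanned the start (chr5:8122742-8123047), where the Proto libraries had 192, 215 and 167 scaled cutcounts, the MMC libraries 224, 194 and 251, the M libraries 129, 207, 188 and 345, the GMC libraries 83.7, 111 and 114 and the GC libraries 138, 122 and 152. Every GMC library lay below every other library of the series. How often this occurs among all THSs was not counted, but GMC had the lowest state mean in 29.9% of them. GMC averaged 103 ± 16.7 and GC 137 ± 15.1, against 223 ± 28.4 for MMC and 217 ± 91.3 for M (SD), and the log2 fold change of -0.84 ± 0.19 passed the test (adjusted p = 0.0056). At the other end of the gene the coding-exon THS_55382 went the other way. There the GMC libraries had 80.0, 70.6 and 76.4 scaled cutcounts and the GC libraries 72.1, 76.0 and 69.8, against 44.9, 98.4 and 45.1 for MMC and 49.0, 42.3, 59.3 and 36.4 for M. Only MMC replicate 2 reached above the GMC and GC libraries, and the log2 fold change was 0.51 ± 0.18 (adjusted p = 0.0345). This call was lost in 9 of the 16 fits that left out a library. The remaining 8 THSs of SLAH3 had log2 fold changes between -0.43 and 0.38 and none passed the test.

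ALMT12, the rapid anion channel activated by malate, had 3 THSs. The leading THS, THS_44069 (chr4:9977722-9978195), covered the 3′ end of the gene, and 172 of its bases lay past that end. Neighbouring gene starts were searched among protein-coding genes only, so a non-coding gene in this part was not looked for. The level of this THS therefore need not belong to ALMT12 alone. There the Proto libraries had 122, 116 and 130.2 scaled cutcounts, the MMC libraries 196, 193 and 269, the M libraries 132, 197, 178 and 271, the GMC libraries 116, 151 and 123 and the GC libraries 100.2, 139 and 139.6. Means of Proto (123), GMC (130.003) and GC (126) lay together, and MMC (219) and M (194) stood higher, with M replicate 1 inside the GMC range. The log2 fold change of GMC and GC over MMC and M was -0.66 ± 0.17 (adjusted p = 0.0095). The other ALMT12 THSs, 1109 bp upstream and 2006 bp into the gene, had log2 fold changes of 0.20 and -0.19 that did not pass.

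AHA1, the plasma membrane proton pump, held 5 of the 12 calls and showed both directions within a single gene. THS_20114, 184 bp past the start in an exon with no coding sequence (chr2:8221542-8221855), was the leading one. There the Proto libraries had 162, 123 and 205 scaled cutcounts, the MMC libraries 194, 177 and 308, the M libraries 120.0, 209, 341 and 308, the GMC libraries 106, 90.3 and 96.8 and the GC libraries 125, 132 and 153. Apart from M replicate 1, every MMC and M library lay above every GMC and GC library. Its log2 fold change of -0.95 ± 0.21 in GMC and GC over MMC and M was the lowest of the 41 (adjusted p = 0.0054). At the upstream THS_20113, printed above, the GMC libraries had 84.9, 100.2 and 76.4 scaled cutcounts and the GC libraries 111, 105 and 99.7, against 156, 121 and 215 for MMC and 68.2, 201, 192 and 277 for M. Again only M replicate 1 reached down to the GMC and GC libraries, and the log2 fold change was -0.76 ± 0.23 (adjusted p = 0.0167). THS_20116, at 1404 bp, had means of 97.3 in GMC and 92.0 in GC, against 142 in MMC and 119 in M, a log2 fold change of -0.43 ± 0.16 (adjusted p = 0.0415) that was lost in 10 of the 16 fits that left out a library.

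Further into AHA1 the sign turned. THS_20118 lay in a coding exon 2578 bp past the start (chr2:8223962-8224222). There the GMC libraries had 114, 101 and 114 scaled cutcounts and the GC libraries 99.3, 94.7 and 101, against 65.6, 112 and 40.5 for MMC and 84.5, 59.5, 36.8 and 39.2 for M, and Proto had 87.6, 95.01 and 82.6. The GMC and GC libraries lay in a narrow band above all MMC and M libraries except MMC replicate 2. The log2 fold change of 0.81 ± 0.20 was the highest of the 41 (adjusted p = 0.0083). The intronic THS_20117 before it was weaker, with means of 43.0 in GMC and 46.4 in GC, against 30.4 in MMC and 31.3 in M, and its fold change of 0.62 ± 0.23 (adjusted p = 0.0431) was lost in 13 of the 16 fits that left out a library. THS_20119, near the end of the gene, had a fold change of 0.42 that did not pass (adjusted p = 0.131). The leading THSs of the 8 genes and the THS of each gene with the smallest p were named by rule, while AHA1 THS_20113, THS_20116, THS_20117 and THS_20118, SLAH3 THS_55382 and AKT1 THS_22114 were named after their values were seen.

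**Figure D3:**
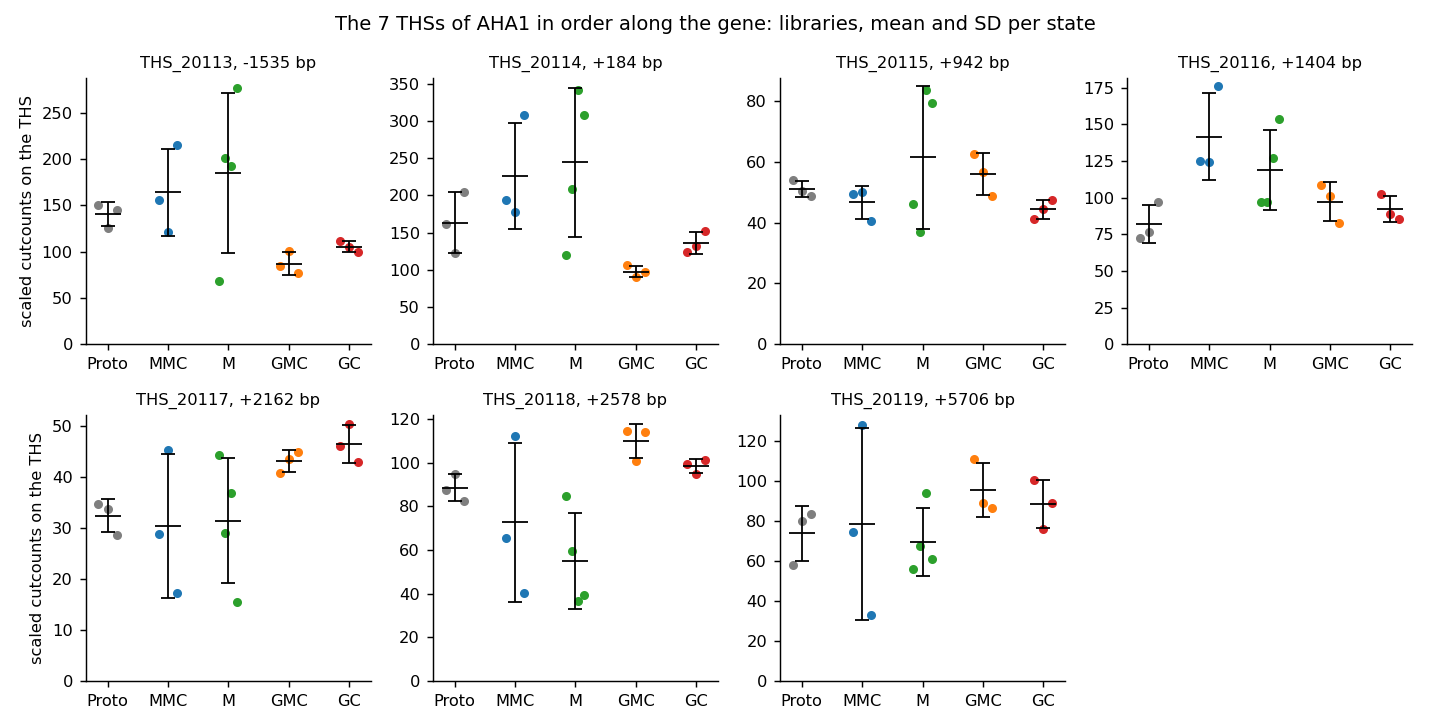
Scaled cutcounts on the 7 THSs of AHA1 in every library (points), with the mean and SD of each state (bars), in order of distance from the gene start. The THSs at -1535 and +184 bp have low GMC and GC values (means of 87.2 and 105, and of 97.6 and 136), and the THS at +2578 bp has high ones (109.8 and 98.4).

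Whether these genes are more open in guard cells was asked by setting GC against the other 4 states. None of the 41 THSs was called, in either direction, and 0.00306% of all THSs were. With so few calls in the whole table, this count cannot tell whether these genes are more open in GC. At an unadjusted p under 0.05 the count was also 0 of 41, against 7.44% of all THSs. The log2 fold changes ran from -0.38 to 0.49 with a median of -0.01, 20 above 0 and 21 below, while the median of all THSs was 0.00. The highest values, 0.49 at AHA1 THS_20117 and 0.48 at AKT1 THS_22114, had intervals of -0.06 to 1.04 and -0.07 to 1.02. The upper bounds at the guard-cell channel genes KAT1, KAT2, GORK and SLAC1 did not exceed 0.89. GC was the highest of the 5 state means in 7 of 41 members and in 15.7% of all THSs.

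A difference between any of the 5 states was called in none of the 41 (F test, smallest adjusted p = 0.0807 at SLAH3 THS_55389), and in 0.0275% of all THSs. At an unadjusted p under 0.05 there were 9 of 41 and 24.9% of all THSs. The count of calls depended on single libraries. Without M replicate 1 it was 10 of 41, where 26.4% of all THSs were called. Without MMC replicate 2 it was 6 (14.4% of all THSs), and without MMC replicate 3 it was 3 (5.5%).

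GMC and GC, the later states, were then set against MMC and M, the precursor states before them, which gave 12 calls. Of the 41 members, 8 (19.5%) were lower in GMC and GC, where 16.6% of all THSs were, and 4 (9.76%) were higher, where 16.7% of all THSs were. The 8 lower THSs were at AHA1 (3), AKT1 (2), GORK, SLAH3 and ALMT12 (1 each), and the 4 higher ones at AHA1 (2), AKT1 and SLAH3 (1 each). KAT1, KAT2 and SLAC1 had no call, but KAT1 THS_59432 was called without M replicate 1 (log2 fold change -0.50, adjusted p = 0.0149). The higher THS at AKT1, THS_22114 in a coding exon 1662 bp past the start, had means of 40.5 in GMC and 44.4 in GC, against 25.8 in MMC and 31.1 in M, a log2 fold change of 0.62 ± 0.23 (adjusted p = 0.0400) that was lost in 8 of the 16 fits that left out a library. The median over the 41 was -0.14, with 25 below 0 and 16 above, and that of all THSs was 0.02. No member had all GMC and GC libraries below all MMC and M libraries or all above them, and 0.978% and 2.04% of all THSs did. With single libraries left out the count ran from 6 (without GMC replicate 1, where 17.6% of all THSs were called) to 16 (without M replicate 1, where 48.4% were), and was 7 without MMC replicate 3 (16.2% of all THSs) or GC replicate 1 (19.9%).

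**Figure D4:**
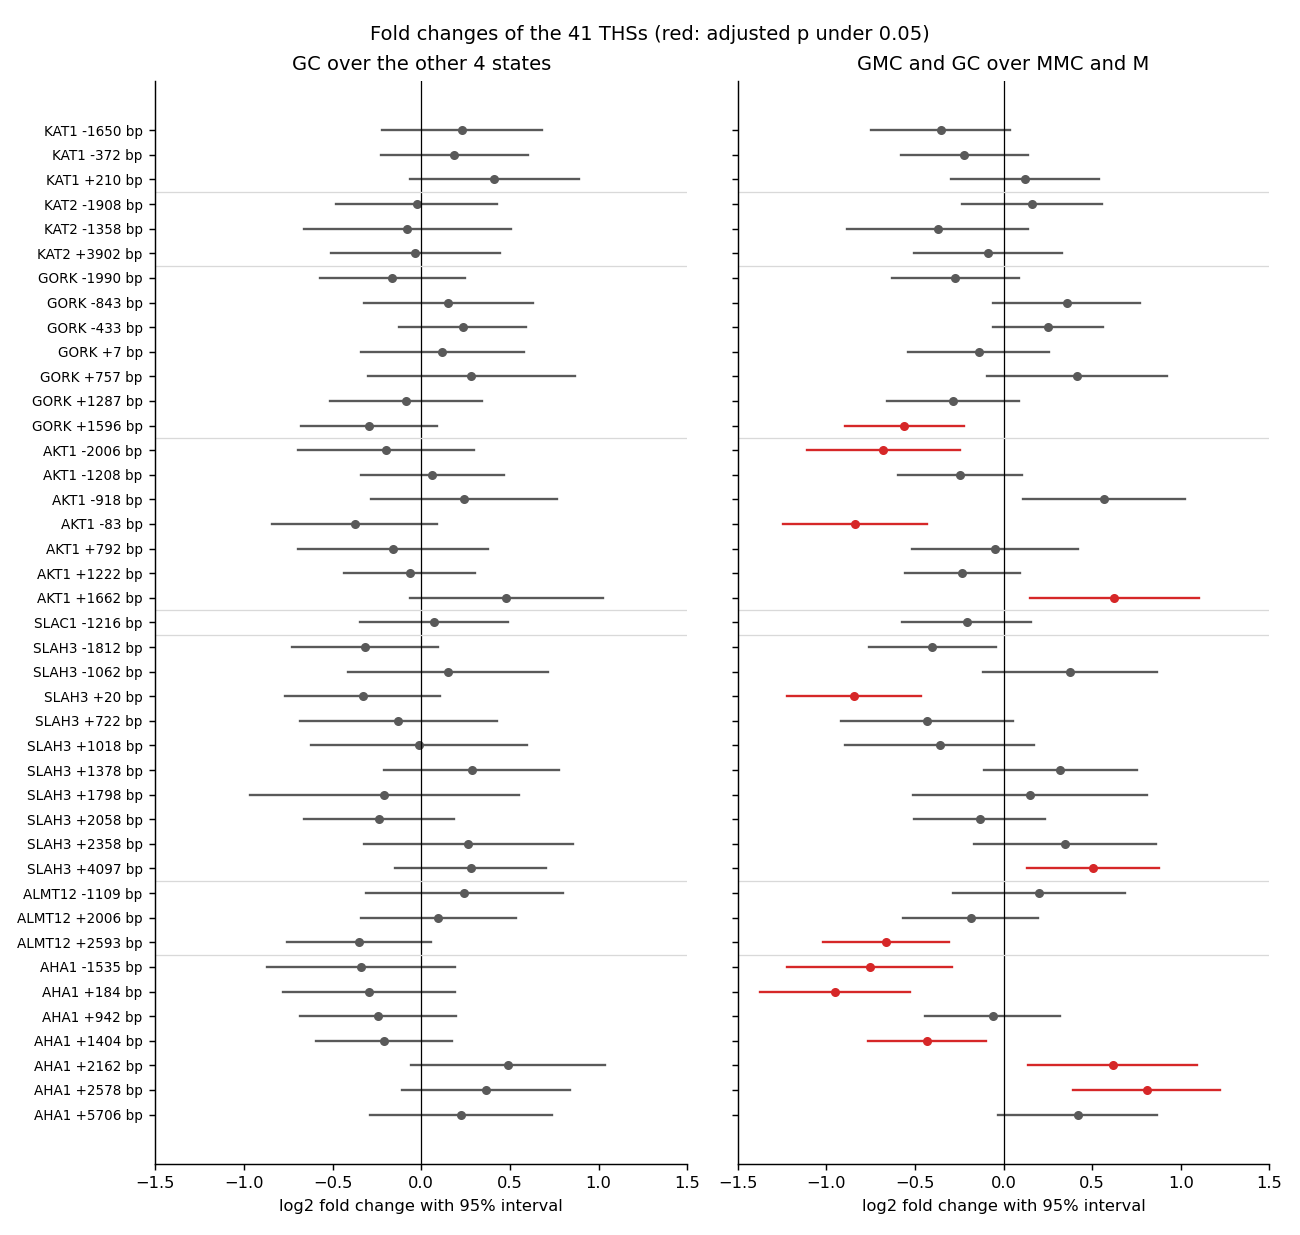
Log2 fold changes of the 41 THSs with 95% intervals, for GC over the other 4 states (left) and for GMC and GC over MMC and M (right), ordered by gene and distance from its start. All intervals on the left include 0, and the 12 red ones on the right (8 below 0, 4 above) passed an adjusted p of 0.05.

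Direction went with level. All 11 members with a mean of at least 100 scaled cutcounts had a fold change below 0 in GMC and GC over MMC and M, and 8 of them were called. Of the 30 members under 100, 16 were above 0 and 14 below, with 4 called, all higher. The whole table showed the same dependence. With all THSs split into 10 groups of equal size by level, the median fold change ran from 0.40 in the lowest group to -0.54 in the highest. In groups 8, 9 and 10, which hold the members of at least 100, 26.6%, 39.5% and 59.3% of all THSs were called lower. In groups 1 to 7, between 13.97% and 28.3% were called higher. AKT1 THS_22120, with -0.68, and THS_22117, with -0.84, lay in that highest group. AHA1 THS_20114 (-0.95) and SLAH3 THS_55389 (-0.84) lay in group 9, whose median was -0.40. AHA1 THS_20118, with 0.81, lay in group 7, whose median was -0.14. Of the 41 members, 28 were below the median of their own level group and 13 above, and 6 of the 41 lay within 0.05 of it. The group median lay inside the 95% interval of the fold change in 31 members, AKT1 THS_22117 and THS_22120 among them. It lay outside in 10.

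**Figure D5:**
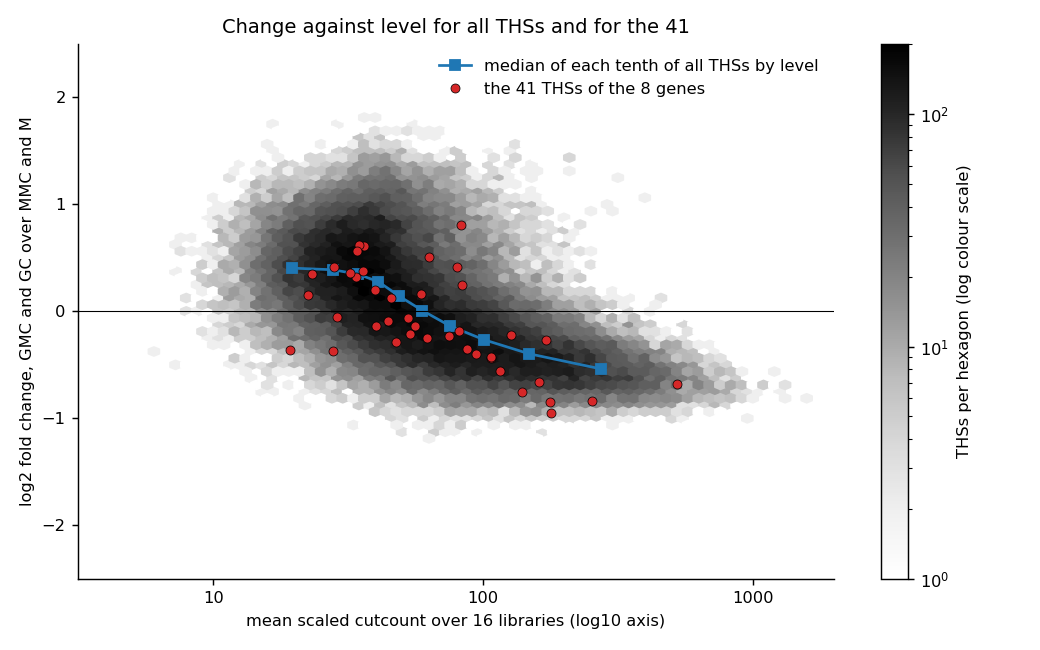
Log2 fold change of GMC and GC over MMC and M against the mean scaled cutcount (log10 axis) for all THSs (grey hexagons, 32 THSs lie outside the axes), for the 41 THSs (red) and as the median of 10 level groups of all THSs (blue squares). The blue medians run from 0.40 at the lowest level to -0.54 at the highest, and most red points above 100 lie under them.

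Measured without the 10 largest THSs, the concentration of signal on strong THSs went with this comparison. It was lower in every GMC and GC library than in every MMC and M library except M replicate 1. A fit with such a covariate cannot separate it from the states, so its part in the calls was not tested. With the share of signal on the top 10% of THSs as a covariate, 4 of 41 members were called (3 lower, 1 higher, 7.6% of all THSs). With the same share computed without the 10 largest THSs, an alternative chosen after the data were seen, none was called, and 0.00459% of all THSs were. After cyclic loess normalization, which removes a dependence on level, 4 were called, 3 lower and 1 higher (16% of all THSs). AKT1 THS_22117, SLAH3 THS_55389, AHA1 THS_20114 and AHA1 THS_20118 each kept their call in 26 of 27 alternatives, the exception being the covariate without the 10 largest THSs.

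Between successive states, only GMC against M gave calls. In GMC, 4 members were lower than in M (9.76%, against 5.87% of all THSs) and 1 was higher (2.44%, against 4.79%). The log2 fold changes were -1.21 at AHA1 THS_20114 (adjusted p = 0.0290), -0.99 at SLAH3 THS_55389 (0.0301), -0.91 at AKT1 THS_22120 (0.0446), -0.84 at AKT1 THS_22117 (0.0466) and 1.06 at AHA1 THS_20118 (0.0305). All 5 calls were lost when any of M replicates 2, 3 and 4 or any GMC replicate was left out, when at most 0.0107% of all THSs were called, and 14 members were called without M replicate 1, where 38.6% of all THSs were. Leaving out MMC replicate 2 (17.1% of all THSs) or 3 (23.9%) gave 8 each, and leaving out MMC replicate 1 or any Proto or GC replicate gave 3 (5.73% to 7.49%). None of the 41 was called in MMC against Proto (0.00765% of all THSs), M against MMC (0.00459%), GC against GMC (0.00765%) or GC against Proto (0.00765%). At an unadjusted p under 0.05, these 4 comparisons had 2, 1, 1 and 0 members, against 7.37%, 2.58%, 1.89% and 3.7% of all THSs. GMC had the lowest of the 5 state means in 19 of 41 members and in 29.9% of all THSs.

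As a description of likeness, the log2 values of each leading THS were correlated with those of the others over the 16 libraries, which share library and scaling. Pearson's r was 0.88 between AKT1 THS_22120 and SLAH3 THS_55389, 0.82 between GORK THS_57070 and AKT1, 0.80 between AHA1 THS_20114 and AKT1, 0.76 between ALMT12 THS_44069 and AHA1 and 0.73 between KAT1 THS_59431 and GORK. SLAC1 THS_02846 reached 0.66, with AHA1, and KAT2 THS_44172 reached 0.09, with KAT1. In the whole table the THS most like the AKT1 site was THS_45255, 53 bp from the start of AT4G22350 (r = 0.99). The THS most like the SLAH3 site was THS_19439, 363 bp from the start of BLH7 (r = 0.97), and that most like the AHA1 site was THS_41086, 40 bp from the start of SAR2 (r = 0.97).

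Other genes of the same families had calls in both directions in GMC and GC against MMC and M. Of all THSs, 16.7% were called higher in this comparison and 16.6% lower. The other Shaker potassium channels (AKT2, KAT3, SKOR, AKT5 and AKT6) had 3 THSs higher and 3 lower of 18, with a median log2 fold change of 0.19. The other SLAC and ALMT genes had 4 higher and 5 lower of 29 (median 0.15). The other AHA pumps had 8 higher and 7 lower of 37 (median 0.02), and AHA6 had no THS. In GC against the other 4 states none of these THSs was called, and 0.00306% of all THSs were. Of the markers, 3 guard-cell THSs of 13 and 3 vascular THSs of 8 were higher in GMC and GC, 3 mesophyll THSs of 8 were lower, and none of the 8 root hair and trichome THSs was called. The part of other cell types in the members' changes was not tested.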

How the data were processed

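The members, gene lists, marker lists and tests were chosen with earlier results of these data known. Nuclei of 5 states were profiled in 16 libraries. As stated in the study's methods, the authors aligned reads with bowtie2 to TAIR10, removed centromeric reads, took cut positions from fragment ends, called peaks with MACS2, joined them with published regulatory sites into 1 list of 65351 THSs, counted cuts on each with bedmap and divided them by DESeq2 size factors. The deposited values are therefore a signal, scaled cutcounts. Every value was a whole multiple of 1 step per library (tolerance 0.02), and that step was taken as 1 cutcount. In 8 libraries the lowest value was 2 steps, and a check that starts from the lowest value did not recover whole counts there, so no count test was run and limma was used on the scaled values. Cutcounts and totals given here rest on that step. Of the columns of values, 1 matched no described sample and was not used.

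Genes and positions came from the RefSeq annotation of TAIR10.1, whose sequence is that of TAIR10, and no THS ran past a chromosome end. Members overlapped a gene or its 2000 bp upstream by at least 1 bp. Values were transformed as log2(value + 1), with no filter on low values, so fold changes of weak THSs are understated. A mean for each of the 5 states was fitted with limma 3.58.1 in R 4.3.3 (moderated with trend and robust settings), with Benjamini-Hochberg adjustment of the p-values across the whole table of THSs. The scripts were tested on simulated data. Named were the leading THS of each gene, the THS of each gene with the smallest p in GMC and GC against MMC and M, and any THS called in the F test or in GC. Alternatives covered scaling, pseudocounts of 0.5 and 5, a minimum of 10 scaled cutcounts, the window, the model and each library left out. Other steps used Python 3.11.15. Replicates are the labels' separate samples of a state, so p-values measure the spread between these samples. A further list of transport genes is not reported here.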

Additional observations from a re-analysis of the deposited data

Results flagged for a closer look

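In M, the only state with 4 libraries, the 12 named THSs were examined for a library apart from the others, and none passed Dixon's 95% critical value.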

How the results depend on the processing

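No call arose in GC against the other 4 states under any alternative, and at most 4 THSs of the whole table were called in it. The main counts of called members were 0 for any difference between states, 12 for GMC and GC against MMC and M and 5 for GMC against M. TMM scaling and pseudocounts of 0.5 and 5 kept these counts within 1.5 times. Cyclic loess normalization gave 4 (16% of all THSs) and 2 (3.62%) for the last 2 comparisons. A minimum of 10 scaled cutcounts in every library gave 2 (1.93%) for any difference and 8 (15.4%) for GMC against M. A replicate block gave 5 (4.68%), 8 (28.4%) and 1 (0.615%). The deviations of same-numbered libraries of different states had a mean correlation of 0.061 over 30 pairs, 9 above 0.1. Differently numbered libraries had -0.026 over 72 pairs, 15 above 0.1. The labels give only a number, and whether libraries of the same number share a batch was not tested. The signal concentration as a covariate gave 4 (7.6%) and 0 (0.00459%) for the last 2 comparisons, and limma without trend and robust settings gave 0 (0.00765%) for GMC against M, where fitting only the states compared gave 3 (8.85%). The windows of 1000 bp, which leaves out the SLAC1 THS, and of THS midpoints gave 10 and 11 for GMC and GC against MMC and M. Leaving out each library gave 0 to 10 (0.0184% to 26.4% of all THSs), 6 to 16 (16.2% to 48.4%) and 0 to 14 (0.00612% to 38.6%). Among alternatives chosen after the data were seen, the concentration without the 10 largest THSs gave 0 and 0 (0.00459% each) for the last 2 comparisons, and leaving out M replicates 1 and 4 together gave 7 (14.5%) for any difference and 8 (19.6%) for GMC against M.

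Some log2 fold changes turned sign. In GMC and GC against MMC and M, cyclic loess gave 0.092 for KAT1 THS_59431 and 0.12 for GORK THS_57070. The concentration without the 10 largest THSs gave 0.25 for KAT1 THS_59431, 0.27 for KAT1 THS_59432, 0.06 for KAT2 THS_44173, 0.26 for GORK THS_57070, 0.13 for AKT1 THS_22120, 0.0023 for SLAC1 THS_02846, -0.056 for AKT1 THS_22114, 0.088 for AHA1 THS_20113 and -0.060 for AHA1 THS_20117, of which the last 3 and THS_22120 were called without the covariate. In GC against the other states, AKT1 THS_22120 had 0.037 under cyclic loess and 0.043 under the concentration without the 10 largest THSs, and KAT2 THS_44173 had 0.050 under the second setting. With each library left out, KAT2 THS_44172 ranged from -0.11 to 0.035, KAT2 THS_44173 from -0.37 to 0.092 and SLAC1 THS_02846 from -0.093 to 0.17. The cause of these differences was not tested.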
